A study of Mus musculus with 4 samples.

Results

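Unmethylated windows are the stretches of the genome that stayed nearly free of CpG methylation when the 4 libraries are pooled. The genome was cut into fixed windows of 1 kb, and a window was measured when it held at least 5 cytosine positions that had at least 5 reads in every library. An autosomal window (chromosomes 1 to 19) was counted as unmethylated when methylated reads made up at most 20% of its reads, both summed over the 4 libraries. Of 293737 measured autosomal windows, 4420 met this rule, or 1.505%, and they covered 4.42 Mb. Of the other autosomal windows, 60642 lay between 20 and 80% and are called intermediately methylated, and 228675 lay at 80% or more and are called fully methylated. Because the rule pooled the libraries, the level of these windows and their stability across libraries follow in part from how they were chosen.

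Whole-genome bisulfite sequencing was applied to genomic DNA of CD4+ T cells from the spleens of NOD mice, a strain prone to autoimmune diabetes. The 4 groups were OX40L-JAG1 Treg, OX40L-JAG1 Teff, PBS Treg and PBS Teff, with 1 library each. Treg cells were sorted as CD4+CD25hi and Teff cells as CD4+CD25-, and a CD25 gate also admits other CD4+ cells with the same surface level. The mice were first dosed at 6 weeks of age, received OX40L and Jagged-1 proteins or PBS weekly over 3 weeks, and were 10 weeks old at sampling. All 4 groups share strain, age, organ and dosing schedule, and the labels do not give the number of animals behind a library. The Treg label was checked at genes that define these cells. Over Foxp3, the lineage factor of Treg cells, with 5 kb on either side, 64.9% of reads were methylated in OX40L-JAG1 Treg, 81.7% in OX40L-JAG1 Teff, 70.0% in PBS Treg and 87.8% in PBS Teff. The inhibitory receptor gene Ctla4 gave 23.1% in OX40L-JAG1 Treg and 63.1% in OX40L-JAG1 Teff, and 34.6% in PBS Treg against 81.4% in PBS Teff. Both Treg libraries were thus the lower of their pair at these loci.

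In mammals most CpG sites carry a methyl group, and those that escape lie mostly in CpG islands. These are CpG-dense stretches at the starts of many genes, where proteins with a CXXC domain bind unmethylated CpG sites and keep the DNA methyltransferases away. Another kind of unmethylated stretch covers whole developmental genes, such as the homeobox genes, which Polycomb complexes keep silent in cells that do not use them. Still others are small and CpG-poor and lie at enhancers, where bound transcription factors go with low methylation. In T cells, gain of methylation in such stretches is known for genes that a lineage shuts off, and loss at Treg genes is part of Treg identity.

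The sequences of 7 gene starts show what these windows look like, from the CpG-dense starts of developmental and lineage genes to the CpG-poor start of Slamf9. Each is the RefSeq promoter of build GRCm38.p6, 250 bases before to 50 bases after the start, written 5′ to 3′ on the strand of the gene, with every CpG in capitals.
Foxa1 (chr12:57546062-57546361, minus strand): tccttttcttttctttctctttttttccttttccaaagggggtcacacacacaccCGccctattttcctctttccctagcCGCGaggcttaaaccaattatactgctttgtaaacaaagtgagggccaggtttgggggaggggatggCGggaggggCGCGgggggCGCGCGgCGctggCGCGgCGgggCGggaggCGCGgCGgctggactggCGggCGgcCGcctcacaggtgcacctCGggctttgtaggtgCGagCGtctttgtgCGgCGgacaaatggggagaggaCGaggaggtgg
Hoxd3 (chr2:74711743-74712042, plus strand): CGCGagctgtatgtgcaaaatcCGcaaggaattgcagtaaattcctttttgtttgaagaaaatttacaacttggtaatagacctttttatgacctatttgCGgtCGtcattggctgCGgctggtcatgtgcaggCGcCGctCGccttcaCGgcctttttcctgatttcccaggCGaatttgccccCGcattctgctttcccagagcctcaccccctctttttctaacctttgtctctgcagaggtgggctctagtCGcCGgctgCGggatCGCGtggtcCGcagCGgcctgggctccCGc
Runx1 (chr16:92697280-92697579, minus strand): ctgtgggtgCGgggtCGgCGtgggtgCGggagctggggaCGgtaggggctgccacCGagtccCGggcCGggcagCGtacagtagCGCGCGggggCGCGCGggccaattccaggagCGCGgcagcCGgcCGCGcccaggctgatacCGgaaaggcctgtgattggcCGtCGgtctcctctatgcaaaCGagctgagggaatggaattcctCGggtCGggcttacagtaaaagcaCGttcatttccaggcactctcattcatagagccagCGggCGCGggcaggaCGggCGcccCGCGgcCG
Satb1 (chr17:51812135-51812434, minus strand): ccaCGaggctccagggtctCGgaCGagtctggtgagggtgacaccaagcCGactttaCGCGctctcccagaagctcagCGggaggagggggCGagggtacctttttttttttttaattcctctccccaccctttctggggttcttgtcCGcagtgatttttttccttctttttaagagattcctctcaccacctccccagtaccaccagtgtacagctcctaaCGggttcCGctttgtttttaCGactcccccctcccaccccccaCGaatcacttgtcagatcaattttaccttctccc
Bcl11b (chr12:108003365-108003664, minus strand): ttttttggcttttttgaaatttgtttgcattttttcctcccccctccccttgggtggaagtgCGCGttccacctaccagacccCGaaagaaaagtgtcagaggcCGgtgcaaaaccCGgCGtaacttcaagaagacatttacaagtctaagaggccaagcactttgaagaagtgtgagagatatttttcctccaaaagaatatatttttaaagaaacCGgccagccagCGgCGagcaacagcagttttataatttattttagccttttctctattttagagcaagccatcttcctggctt
Entpd1 (chr19:40659520-40659819, plus strand): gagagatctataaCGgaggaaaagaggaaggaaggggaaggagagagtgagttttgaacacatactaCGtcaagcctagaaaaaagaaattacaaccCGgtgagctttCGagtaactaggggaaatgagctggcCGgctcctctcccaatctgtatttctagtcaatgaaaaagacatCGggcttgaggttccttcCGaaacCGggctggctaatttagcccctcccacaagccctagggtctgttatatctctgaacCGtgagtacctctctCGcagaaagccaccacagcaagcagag
Slamf9 (chr1:172475110-172475409, plus strand): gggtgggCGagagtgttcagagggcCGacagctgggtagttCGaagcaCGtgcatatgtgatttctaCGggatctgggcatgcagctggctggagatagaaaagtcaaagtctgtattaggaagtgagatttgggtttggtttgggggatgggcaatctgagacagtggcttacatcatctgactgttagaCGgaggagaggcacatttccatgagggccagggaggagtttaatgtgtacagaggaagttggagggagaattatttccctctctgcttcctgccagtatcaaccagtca
Foxa1 encodes a pioneer factor of endoderm, Hoxd3 a homeobox factor of the body axis, and Runx1, Satb1 and Bcl11b are regulators of T cell development. Entpd1 encodes CD39, an ectoenzyme found on many Treg cells, and Slamf9 a receptor of the SLAM family. The Foxa1 promoter held 26 CpG sites, Hoxd3 20, Runx1 35, Satb1 13, Bcl11b 9, Entpd1 10 and Slamf9 6. They were picked by hand with their levels known, among promoters with at least 5 measured positions inside the 300 bases, and Slamf9 because its window is among the called ones below. The strands are listed apart in the deposited table, so that a CpG site can give 2 positions.

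Read at their own positions, the first 6 of these promoters were low in each library, at 5.91% or less. The 11 measured positions of the Satb1 promoter had 2.50% methylated reads in OX40L-JAG1 Treg, 0.714% in OX40L-JAG1 Teff, 0% in PBS Treg and 0.606% in PBS Teff. The 17 positions of Foxa1 had 1.39% in OX40L-JAG1 Treg, 2.02% in OX40L-JAG1 Teff, 2.26% in PBS Treg and 2.21% in PBS Teff. The 12 positions of Hoxd3 were somewhat higher, with 5.71% in OX40L-JAG1 Treg, 4.74% in OX40L-JAG1 Teff, 5.45% in PBS Treg and 5.91% in PBS Teff. Slamf9 stood apart from the other 6 in OX40L-JAG1 Teff. Its 6 positions had 5.41% in OX40L-JAG1 Treg, 21.6% in OX40L-JAG1 Teff, 6.52% in PBS Treg and 0% in PBS Teff.

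The level of the unmethylated windows was nearly the same in every library. Pooled over all 4420 windows, 8.14% of reads were methylated in OX40L-JAG1 Treg, 7.95% in OX40L-JAG1 Teff, 7.82% in PBS Treg and 7.68% in PBS Teff. The median window stood at 6.67% in OX40L-JAG1 Treg, 6.78% in OX40L-JAG1 Teff, 6.53% in PBS Treg and 6.21% in PBS Teff. On the mitochondrial genome, which serves as a low background, 0.619% of reads counted as methylated in OX40L-JAG1 Treg, 0.712% in OX40L-JAG1 Teff, 0.634% in PBS Treg and 0.697% in PBS Teff. The median window was therefore low but not at that background. Of the 4420 windows, 567 were at 1% or less when pooled, 1792 at 5% or less and 2763, or 62.5%, at 10% or less. In 94 windows no methylated read was seen in any library, among a median of 186 reads.

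Read number limits each single value. The median window rested on 77 reads in OX40L-JAG1 Treg, 94 in OX40L-JAG1 Teff, 88 in PBS Treg and 117 in PBS Teff. These are sums over positions, so a read that covers several positions counts several times, and all intervals and p-values below cover counting error only. In a bulk library, a part of the cells methylated throughout and all cells methylated in part cannot be told apart. Single positions varied more than the windows: of 42096 positions inside the windows, 89.1% were at 20% or less when pooled, 9.64% between 20 and 80%, and 1.29% at 80% or more. In 2156 windows, or 48.8%, every position was at 20% or less, whereas 903 windows, or 20.4%, held a position at 50% or more. The name unmethylated therefore holds for the window and not for each of its positions.

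Windows next to the threshold were alike on both sides of it. Just inside, 10 windows stood at exactly 20%, among them chr1:25527001-25528000 with 41 methylated of 205 reads. Just outside was chr18:82312001-82313000, with 179 methylated of 894 reads, or 20.02%. Within 2 points of the threshold lay 330 windows inside and 312 outside.

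The median treatment difference was near 0 in the unmethylated windows and below 0 in the other classes. Their median difference was 0.034 points in OX40L-JAG1 Teff against PBS Teff and 0 points in OX40L-JAG1 Treg against PBS Treg. The median difference of intermediately methylated windows was -4.15 points in Teff and -3.20 in Treg, and that of fully methylated ones -2.63 in Teff and -1.98 in Treg. A window already near 0 has little room to fall, so the size of a loss is capped by the choice of windows. A gain that lifts the pooled level over the threshold removes a window as well. The 5th and 95th percentiles of the differences were -7.78 and 9.22 points for Teff. For Treg these percentiles were -7.65 and 9.32 points. Between the cell types the median difference was 0 points, both in PBS Treg against PBS Teff and in OX40L-JAG1 Treg against OX40L-JAG1 Teff.

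**Figure D1:**
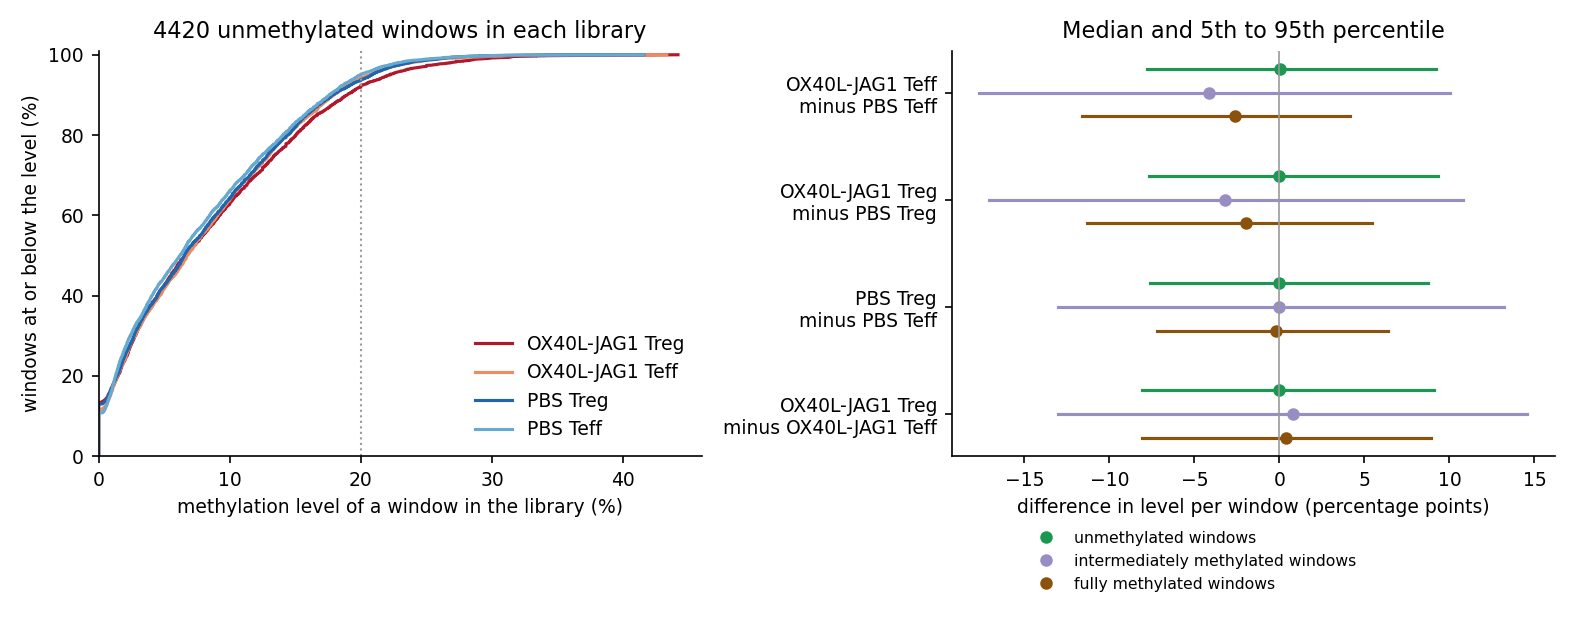
Left, the share of the 4420 unmethylated windows (vertical axis, %) at or below each methylation level (horizontal axis, %) in each of the 4 libraries, with a dotted line at the threshold of 20%. Right, the median (point) and the 5th to 95th percentile (line) of the per-window difference in percentage points for each pair of libraries, in unmethylated, intermediately methylated and fully methylated windows. The 4 curves nearly coincide, that of OX40L-JAG1 Treg being lowest above about 10%, and of the 3 classes only the unmethylated windows have medians near 0 in both treatment pairs.

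Unmethylated windows clustered at gene starts. Chromosome 18 was left out of all counts by gene start, since promoters there were not used here, which leaves 4291 unmethylated windows. Of 3950 measured windows over a RefSeq promoter, 1059 were unmethylated, or 26.8%. The share was 1.67% in gene bodies, 1.56% within 5 kb of a gene and 0.445% of windows with no gene within 5 kb. By distance from the nearest listed start, 29.4% of windows centred on it were unmethylated, 19.1% of those 1 kb downstream and 8.97% of those 1 kb upstream. The promoter table is not complete, so some windows counted as away from a start may lie at one that it does not list. The gene table gives no exons, so exon and intron were not told apart.

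The level also depended on the place. At gene starts the median pooled level of the unmethylated windows was 3.22%, against 7.44% in gene bodies, 9.50% within 5 kb of a gene and 10.98% away from genes. These are windows of the same class, and the order of places was the same in each library. At gene starts, pooled levels were 5.72% in OX40L-JAG1 Treg, 5.64% in OX40L-JAG1 Teff, 5.64% in PBS Treg and 5.65% in PBS Teff. Away from genes they were 11.1% in OX40L-JAG1 Treg, 10.97% in OX40L-JAG1 Teff, 10.52% in PBS Treg and 10.53% in PBS Teff. By chromosome, the unmethylated share ran from 0.990% of measured windows on chromosome 16 to 2.58% on chromosome 11.

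CpG number went with the unmethylated state of promoters. Most of the 31396 promoters lay in no measured window. The 1308 promoters in an unmethylated window, of 1156 genes, had a median of 20 CpG sites in 300 bases, and the 3059 in a measured window above 20% had 5. The median observed over expected CpG ratio was 0.775 in unmethylated windows and 0.333 above 20%. In a stricter reading, 619 promoters had at least 5 measured positions of their own, and 342 of these, or 55.3%, were at 20% or less. That share was 3.70% with 0 to 4 CpG sites, 26.6% with 5 to 9, 72.8% with 10 to 19, 96.9% with 20 to 29 and 93.3% with 30 or more. The highest of these bins held 30 promoters and the lowest 27, so their shares are coarse.

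**Figure D2:**
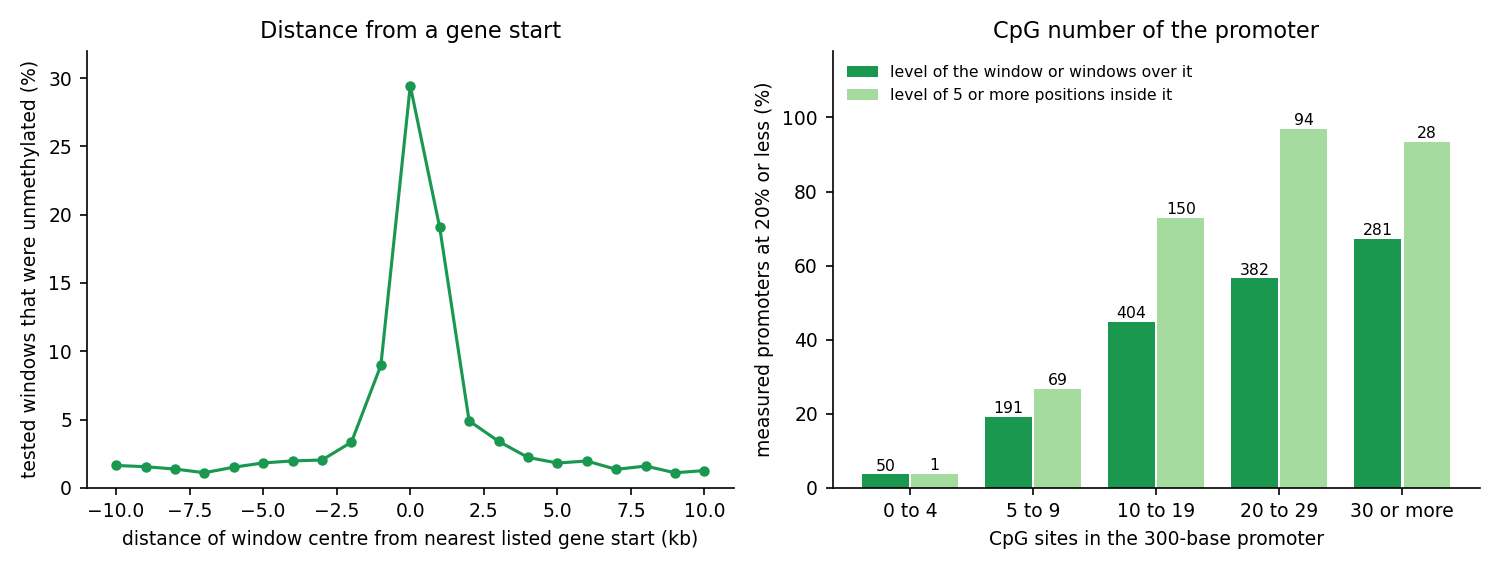
Left, the share of measured windows that were unmethylated (%) by distance of the window centre from the nearest listed gene start in kb, negative values lying upstream. Right, the share of measured promoters at 20% or less (%) by the number of CpG sites in the promoter, with the number at 20% or less above each bar, judged by the window over the promoter (dark) or by at least 5 measured positions inside it (light). The share peaks at 29.4% at the start, and by own positions it goes from 3.70% to 96.9% and 93.3% with CpG number.

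Short motifs differed in frequency between the 2 kinds of promoter. Each was searched on both strands as exact letters. The ETS motif CCGGAAG lay in 17.6% of promoters in unmethylated windows, 8.43% of those measured above 20% and 9.004% of all promoters. For GGGCGG, the box bound by SP1, the shares were 58.5%, 23.6% and 36.0% in the same order. For TATAAA, the TATA box, they were 7.03%, 18.4% and 13.6%. CCGGAAG and GGGCGG contain a CpG and TATAAA does not, so motif share and CpG number cannot be told apart here. A match describes letters and not a bound site.

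Among the 14 lists, developmental regulators had the highest share of unmethylated windows. Of 114 measured genes in a list of 121 developmental transcription factors, 92, or 80.7%, had an unmethylated window in the gene or within 5 kb, against 18.1% of 17669 measured protein-coding genes. In all, 222 of the 489 windows at these genes were unmethylated, or 45.4%, against 2.47% of windows at protein-coding genes. Their pooled level was 10.0% in OX40L-JAG1 Treg, 10.1% in OX40L-JAG1 Teff, 9.42% in PBS Treg and 9.72% in PBS Teff. None of the 222 was called in a pair of libraries by the rule given below, where 42 of all 4420 unmethylated windows were, so that a count of 0 says little about these genes. Morphogen ligands, the secreted signals of the same programmes, had 10 of 28 measured genes with an unmethylated window, such as Fgf3, a growth factor gene, with 1.71% in OX40L-JAG1 Treg, 2.88% in OX40L-JAG1 Teff, 1.39% in PBS Treg and 2.96% in PBS Teff.

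Several of the longest unmethylated runs lay at such genes. Of the 4420 windows, 1803 had a measured neighbour and 861 adjoined another unmethylated window, so run length depends on which windows were measured. The longest runs had 5 windows. Among these were a run at Meis2, a homeobox cofactor, and a run at Zfp521, a zinc finger factor of progenitor cells. The Meis2 run, chr2:116062001-116067000, had 5.90% methylated reads in OX40L-JAG1 Treg, 6.67% in OX40L-JAG1 Teff, 4.801% in PBS Treg and 5.92% in PBS Teff. The Zfp521 run, chr18:13969001-13974000, had 5.25% in OX40L-JAG1 Treg, 7.76% in OX40L-JAG1 Teff, 7.63% in PBS Treg and 5.49% in PBS Teff. Runs of 4 windows lay at Tfap2a, Nr2f1, Fosl2, Pou2f2, the divergent pair Zic1 and Zic4, and a cluster of tRNA genes on chromosome 13. All 9 measured windows inside Zic4 and all 8 inside Tfap2b were unmethylated, and the unmeasured parts of these genes have no level. Pax2 had 8 unmethylated windows with its flanks, Meis2 and Pax3 had 7 each, and no window of these 3 genes was called.

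By the share of genes with an unmethylated window, T cell identity genes came next among the lists. Of 37 measured genes in a list of T cell identity genes, 17 had an unmethylated window, and 38 of 400 windows, or 9.50%, were unmethylated. By the share of windows the list did not come next. Higher shares were found for CD8 T and NK cell genes (15.4%), morphogen ligands (10.1%) and effector and helper lineage genes (9.66%). The share of genes also depends on how many windows were measured per gene. Gata3, a factor of T cell and Th2 development, had 6 such windows, with pooled levels of 3.49% in OX40L-JAG1 Treg, 4.15% in OX40L-JAG1 Teff, 4.30% in PBS Treg and 3.59% in PBS Teff. Ptprc, which encodes CD45, Ikzf1, which encodes Ikaros, and Ikzf3, which encodes Aiolos, had 4 each. The Bcl11b start had 0% in OX40L-JAG1 Treg, 0% in OX40L-JAG1 Teff, 1.67% in PBS Treg and 0% in PBS Teff. Of the 4 T cell genes measured as unmethylated at their start, which were Bcl11b, Gata3, Runx1 and Satb1, the highest level in any library was 4.23%, for Runx1 in OX40L-JAG1 Treg. Only 7 genes of this list were measured at their start.

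An unmethylated window lay at 8 of 24 measured Treg signature genes, 12 of 36 effector and helper lineage genes, 8 of 26 OX40 and NF-kB genes and 10 of 25 Notch pathway genes. Ikzf2, which encodes the Treg factor Helios, had 3 such windows in the gene or near it, with 1.70% in OX40L-JAG1 Treg, 1.17% in OX40L-JAG1 Teff, 0.390% in PBS Treg and 1.01% in PBS Teff. Bcl6, the factor of follicular helper cells, was at 1.18% in OX40L-JAG1 Treg, 1.23% in OX40L-JAG1 Teff, 0.781% in PBS Treg and 0.628% in PBS Teff over 3 windows. Hes1, a target gene of Notch, was at 3.57% in OX40L-JAG1 Treg, 2.16% in OX40L-JAG1 Teff, 0% in PBS Treg and 1.20% in PBS Teff in 1 window. The 2 windows of Stat5b, a transducer of IL-2 signals, had 0.885% in OX40L-JAG1 Treg, 0.588% in OX40L-JAG1 Teff, 5.26% in PBS Treg and 4.97% in PBS Teff, and neither was called.

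The remaining lists stand for other cells and uses. An unmethylated window lay at 3 of 13 measured B cell genes, 2 of 11 CD8 T and NK cell genes, 1 of 12 myeloid genes, 5 of 23 imprinted genes and 1 of 17 germline genes. By windows in place of genes, the share was 15.4% for CD8 T and NK cell genes and 8.0% for housekeeping genes, against 7.41% for Treg signature genes, and differences between lists were not tested. Among housekeeping genes it was 4 of 22, and among CpG island and Polycomb machinery genes 7 of 26. The B cell genes were Pax5 and Ebf1, both lineage factors, and the adaptor gene Blnk. The single germline gene was Dmc1, a meiotic recombinase, whose window had 7.58% in OX40L-JAG1 Treg, 24.0% in OX40L-JAG1 Teff, 5.26% in PBS Treg and 24.4% in PBS Teff. It was higher in the Teff library of both pairs, but was not called. CpG-dense housekeeping starts were seldom measured, with only 2 of 22 genes read at their start, so low counts in that list do not describe these promoters.

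**Figure D3:**
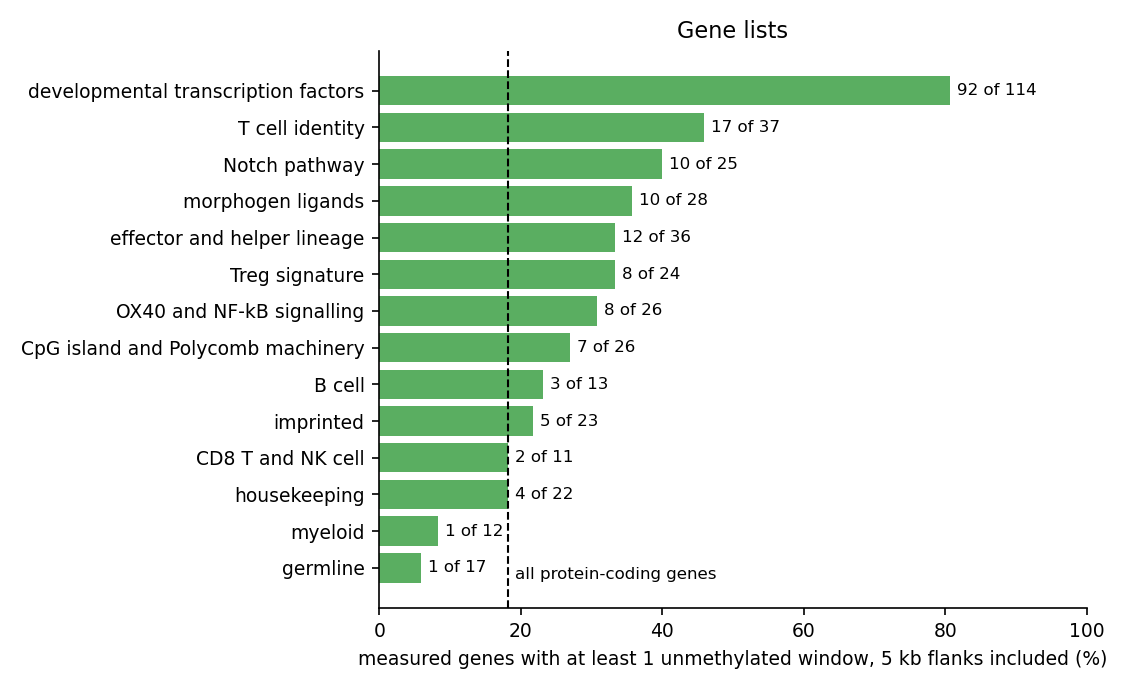
The share of measured genes with at least 1 unmethylated window in the gene or within 5 kb (%), for 14 gene lists, with counts beside the bars and a dashed line at the 18.1% of all measured protein-coding genes. Developmental transcription factors lie highest at 80.7% and germline genes lowest at 5.88%.

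Few unmethylated windows passed the rule used here for calling a difference between libraries. A window was called when a two-sided Fisher's exact test of its reads gave an adjusted p under 0.05 (Benjamini-Hochberg over all 314517 measured windows, sex chromosomes included) and the levels differed by at least 20 points. With 1 library per group, such a test compares libraries and not conditions. Over the 4 pairs and the 4 comparisons of a library with the other 3, 60 of the 4420 windows were called in 1 or more, or 1.36%, against 1.09% of all measured windows. These shares are near each other and count gains and losses together, so nothing is read from them about the unmethylated windows. A window with a low pooled level can hardly reach a difference of 20 points, so the calls lean towards higher pooled levels by construction. At gene starts, 4 of 1059 windows were called. Among windows between 10 and 20%, 3 of 243 at gene starts were called and 51 of 1358 elsewhere, or 1.23% and 3.76%. The 22 measured windows that adjoined a called one had a median level of 59.6%, against 27.3% for the 2020 beside the others. The called windows themselves had a median pooled level of 15.7% and the others 6.82%, so these neighbours were not matched for level.

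In OX40L-JAG1 Teff against PBS Teff, 14 unmethylated windows were called higher and 8 lower. Of all measured windows, 0.0881% were called higher and 0.469% lower. Since the rule pooled these same libraries, nothing is read from the members' share. Among named genes, the largest gains by the interval bound nearest 0 were at Ptk2b, Nr6a1, Kcnmb4, Uri1 and Ascc3. Ptk2b encodes the kinase Pyk2, which acts in T cell adhesion and migration. Its window chr14:66189001-66190000, in the gene body, had 36.8% in OX40L-JAG1 Treg, 35.2% in OX40L-JAG1 Teff, 14.6% in PBS Treg and 5.11% in PBS Teff. The Teff difference of 30.1 points had an interval of 22.9 to 37.5 (95% Newcombe; Fisher's exact test, adjusted p = 1.29e-14). Both OX40L-JAG1 libraries were above both PBS libraries, and all 5 measured positions, which span 69 bases, were higher in OX40L-JAG1 in both cell types. Positions this close can share reads, and the window was picked by their sum. Position counts here and below therefore describe a window and add no separate support.

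Ascc3, a helicase of the activating signal cointegrator complex, showed the same order of treated and PBS libraries as Ptk2b. Its window chr10:50650001-50651000 had 32.2% in OX40L-JAG1 Treg, 21.2% in OX40L-JAG1 Teff, 9.26% in PBS Treg and 0% in PBS Teff, with adjusted p = 4.12e-09 in Teff (Fisher's exact test). In Teff all 5 positions were higher, and in Treg 4 of 5. Nr6a1, an orphan nuclear receptor gene, had 14.8% in OX40L-JAG1 Treg, 31.0% in OX40L-JAG1 Teff, 5.81% in PBS Treg and 3.68% in PBS Teff. Uri1, which encodes a prefoldin-like protein, had 0% in OX40L-JAG1 Treg, 34.2% in OX40L-JAG1 Teff, 12.5% in PBS Treg and 4.26% in PBS Teff. For Uri1 only the Teff library of the treated mice was high. Kcnmb4, a potassium channel subunit gene, and the start of its antisense gene Kcnmb4os2 shared a window with 27.8% in OX40L-JAG1 Treg, 28.8% in OX40L-JAG1 Teff, 13.7% in PBS Treg and 0% in PBS Teff.

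Notch1, a receptor of Jagged-1, had an unmethylated window within 5 kb of the gene, chr2:26507001-26508000. It had 9.09% in OX40L-JAG1 Treg, 29.6% in OX40L-JAG1 Teff, 11.4% in PBS Treg and 5.26% in PBS Teff (Fisher's exact test, adjusted p = 0.00342 in Teff). Of its 8 positions, 6 were higher and 1 lower in OX40L-JAG1 Teff than in PBS Teff. Ccnd3, which encodes the cell cycle protein cyclin D3, had 8.57% in OX40L-JAG1 Treg, 21.3% in OX40L-JAG1 Teff, 13.7% in PBS Treg and 0% in PBS Teff. The Slamf9 start, whose sequence is printed above, was called here as well, with adjusted p = 0.0202 (Fisher's exact test). Other called gains lay at Frs2, Srcin1, Coro2a, Chd2 and a window on chromosome 13 with no gene nearby.

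The windows called lower in OX40L-JAG1 Teff were highest in PBS Teff. Irf4 encodes a factor of activated T cells and of effector Treg cells. Its window chr13:30750001-30751000 in the gene body had 0% of 77 reads in OX40L-JAG1 Treg, 8.24% in OX40L-JAG1 Teff, 8.53% in PBS Treg and 30.8% in PBS Teff. The 77 reads of OX40L-JAG1 Treg without a methylated one are few, and the Teff difference was -22.6 points (-32.3 to -11.7; Fisher's exact test, adjusted p = 0.00956). At 9 of its 10 positions OX40L-JAG1 Teff was lower than PBS Teff, though these are the reads on which the window was called. Dock2, a Rac activator needed for lymphocyte migration, had 3.37% in OX40L-JAG1 Treg, 8.59% in OX40L-JAG1 Teff, 10.98% in PBS Treg and 30.8% in PBS Teff. Phlpp1, a phosphatase gene, had 2.94% in OX40L-JAG1 Treg, 6.29% in OX40L-JAG1 Teff, 10.0% in PBS Treg and 27.4% in PBS Teff. Near Pou2f2, which encodes the octamer factor Oct-2, the levels were 16.9% in OX40L-JAG1 Treg, 2.08% in OX40L-JAG1 Teff, 14.8% in PBS Treg and 29.6% in PBS Teff. In all 8 windows called lower, PBS Teff had the highest level of the 4 libraries. The limit on the pooled level favours this order, so nothing is read from it.

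The Teff counts were sensitive to how reads are counted. With the reads of each window divided by 3, as a guard against positions that share a read, 1 window stayed called higher and 0 lower. At a minimum of 10 reads per position, 1357 unmethylated windows were left and 1 was called in each direction.

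In OX40L-JAG1 Treg against PBS Treg, 6 unmethylated windows were called higher and 1 lower. Among all measured windows 0.0194% were called higher and 0.0811% lower in this pair. The Ptk2b and Ascc3 windows were called higher here too, by 22.2 points (11.6 to 33.1; Fisher's exact test, adjusted p = 0.0217) and by 23.0 points (11.8 to 34.0; adjusted p = 0.0293 by the same test). They were the 2 windows called in both cell types, in pairs that share no library. Ankrd11, a chromatin regulator gene, had 31.0% in OX40L-JAG1 Treg, 21.9% in OX40L-JAG1 Teff, 7.69% in PBS Treg and 14.1% in PBS Teff. Runx1t1, a corepressor gene, had 28.3% in OX40L-JAG1 Treg, 24.2% in OX40L-JAG1 Teff, 8.06% in PBS Treg and 16.2% in PBS Teff. A window on chromosome 9 with no gene nearby had 39.5% in OX40L-JAG1 Treg, 20.1% in OX40L-JAG1 Teff, 12.2% in PBS Treg and 4.27% in PBS Teff. At these 5 windows both treated libraries were above both PBS libraries.

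Ttc28 differed in this respect. Its window chr5:111058001-111059000, deep inside the gene, had 27.1% in OX40L-JAG1 Treg, 4.35% in OX40L-JAG1 Teff, 5.56% in PBS Treg and 8.04% in PBS Teff. Only OX40L-JAG1 Treg was high. The single loss was at Nav2, a cytoskeletal gene, where PBS Treg alone was high: 11.02% in OX40L-JAG1 Treg, 3.85% in OX40L-JAG1 Teff, 41.6% in PBS Treg and 13.6% in PBS Teff. Its difference was -30.5 points (-41.8 to -18.8; Fisher's exact test, adjusted p = 7.76e-04), and 10 of 11 positions were lower in OX40L-JAG1 Treg than in PBS Treg. With reads divided by 3, no window was called in Treg in either direction. The difference between cell types in the treatment response was not called for any unmethylated window. The Wald test of the interaction gave a smallest adjusted p of 0.0805 among them. At an unadjusted p under 0.05 by this test were 249 of the 4420 windows. The same unadjusted count over all measured windows is not given, so nothing is read from the 249. By the call, which uses the adjusted p, 34 of all measured windows passed, or 0.0108%.

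Below the call, the treatment pairs were compared by size alone. At least 10 points higher in OX40L-JAG1 in both cell types were 38 windows, and at least 10 points lower in both were 16. Opposite changes of that size were seen in 10 windows, 7 of them higher in Teff and lower in Treg. The rule limits losses more than gains, and the same counts over all measured windows are not given. Nothing is therefore read from the counts of this comparison by size.

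**Figure D4:**
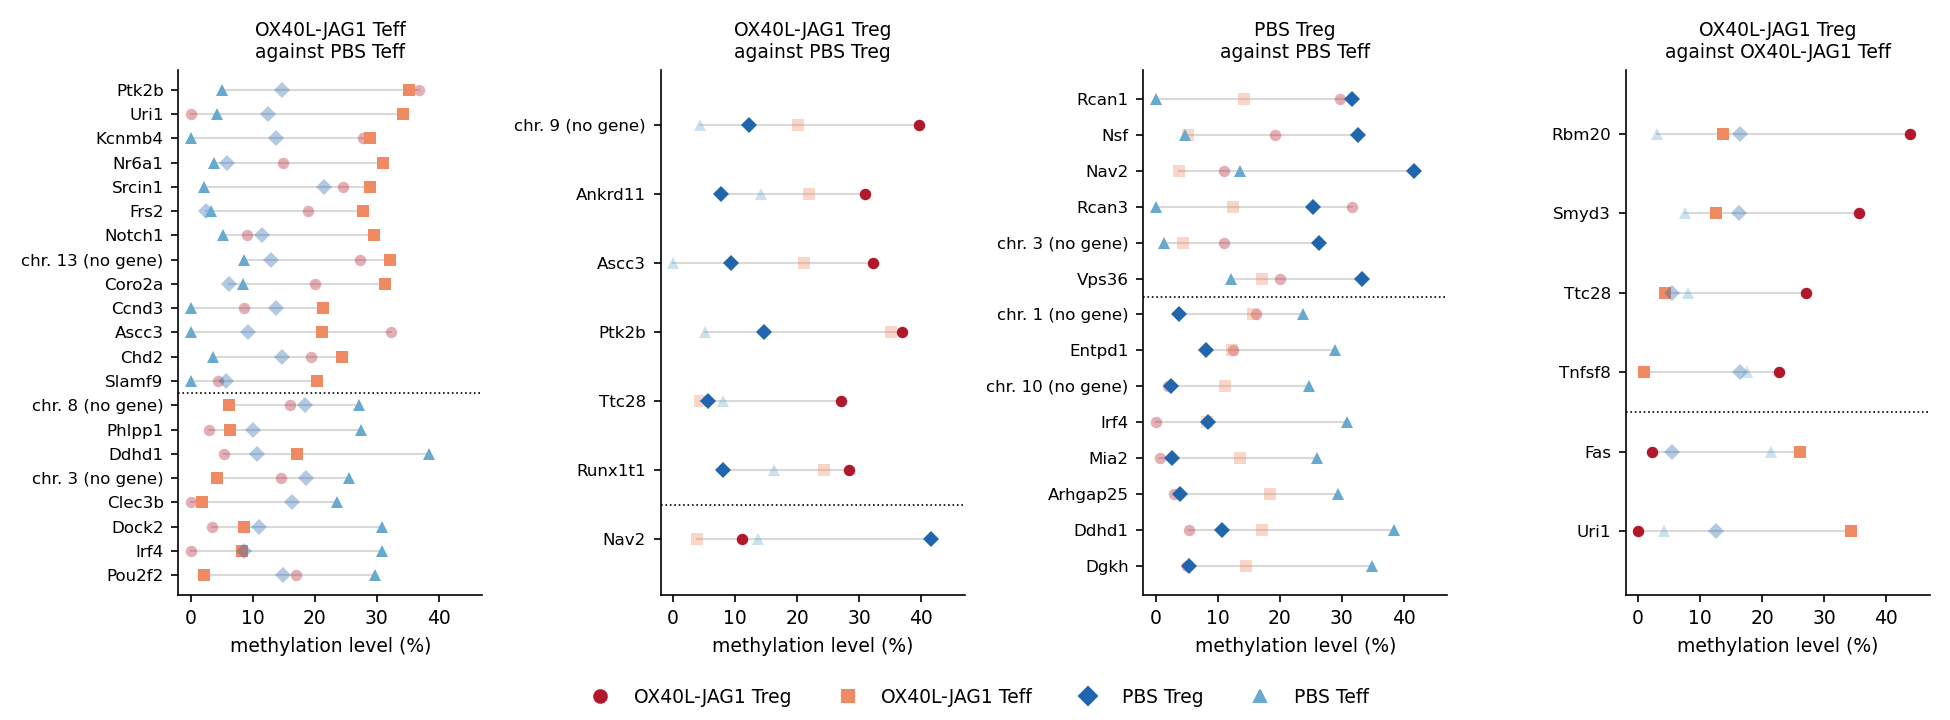
Methylation level (%) of the unmethylated windows called in 1 of the 4 pairs of libraries, save 1 not shown, in all 4 libraries, with the libraries of the pair in full colour and the others faded. Windows above the dotted line were called higher in the first library of the pair and those below it lower. In all windows called lower in OX40L-JAG1 Teff, and in all called lower in PBS Treg, PBS Teff lies to the right of the other libraries. The limit on the pooled level favours this order.

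In PBS Treg against PBS Teff, 6 unmethylated windows were called higher and 8 lower, where all measured windows had 0.115% higher and 0.165% lower. The gains included 2 members of the family that restrains calcineurin, the phosphatase of T cell activation. Rcan1 had 29.7% in OX40L-JAG1 Treg, 14.3% in OX40L-JAG1 Teff, 31.6% in PBS Treg and 0% in PBS Teff. Rcan3, at a window that also holds Mir700, had 31.7% in OX40L-JAG1 Treg, 12.5% in OX40L-JAG1 Teff, 25.3% in PBS Treg and 0% in PBS Teff. For both genes each Treg library was above the Teff library of its pair, and only the PBS pair was called (Fisher's exact test, adjusted p = 0.0391 for Rcan1 and 0.00793 for Rcan3). Rcan1 rests on 35 to 38 reads a library. Nav2, Nsf, which encodes an ATPase of membrane fusion, and Vps36, an ESCRT subunit gene, were the other named gains. PBS Treg was the highest library at all 3, and OX40L-JAG1 Treg was above OX40L-JAG1 Teff.

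Of the 8 windows called lower in PBS Treg, 6 had a lower level in OX40L-JAG1 Treg than in OX40L-JAG1 Teff as well. At Mia2, a gene of cargo export from the endoplasmic reticulum, the levels were 0.685% in OX40L-JAG1 Treg, 13.6% in OX40L-JAG1 Teff, 2.69% in PBS Treg and 26.0% in PBS Teff. That difference of -23.3 points had an interval of -28.6 to -17.9 and rested on 146 to 323 reads a library (Fisher's exact test, adjusted p = 1.13e-11). Dgkh, which encodes a diacylglycerol kinase, had 5.0% in OX40L-JAG1 Treg, 14.5% in OX40L-JAG1 Teff, 5.45% in PBS Treg and 34.8% in PBS Teff. Ddhd1, a phospholipase gene, had 5.32% in OX40L-JAG1 Treg, 17.1% in OX40L-JAG1 Teff, 10.8% in PBS Treg and 38.4% in PBS Teff. Irf4 was called here too (adjusted p = 0.00364 by Fisher's exact test). At Mia2, Dgkh and Ddhd1 both Treg libraries were lowest, PBS Teff was highest and OX40L-JAG1 Teff lay between. That PBS Teff was highest is favoured by the limit on the pooled level.

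Entpd1, the CD39 gene, joined an unmethylated start to a window that differed. Its start had 2.04% in OX40L-JAG1 Treg, 0% in OX40L-JAG1 Teff, 1.49% in PBS Treg and 1.47% in PBS Teff. The window chr19:40679001-40680000, 19.7 kb downstream of that start, had 12.5% in OX40L-JAG1 Treg, 12.4% in OX40L-JAG1 Teff, 8.20% in PBS Treg and 28.96% in PBS Teff. The PBS pair differed by -20.8 points (-27.4 to -13.6; Fisher's exact test, adjusted p = 2.96e-05), and both OX40L-JAG1 libraries stood at about the same level. Of its 12 positions, 6 were lower and 0 higher in PBS Treg, and single positions reached 74.4% in PBS Teff. Both unmethylated windows near Izumo1r, which encodes folate receptor 4 of Treg cells, were highest in PBS Teff without being called. The higher of them had 11.5% in OX40L-JAG1 Treg, 17.4% in OX40L-JAG1 Teff, 12.3% in PBS Treg and 31.1% in PBS Teff.

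In OX40L-JAG1 Treg against OX40L-JAG1 Teff, 4 unmethylated windows were called higher and 2 lower, beside 0.0547% higher and 0.0588% lower of all measured windows. Tnfsf8 encodes CD30 ligand, and its window just downstream of the start had 22.7% in OX40L-JAG1 Treg, 0.943% in OX40L-JAG1 Teff, 16.5% in PBS Treg and 17.5% in PBS Teff. There the Teff library of treated mice alone was low (Fisher's exact test, adjusted p = 6.61e-04). Rbm20, a splicing regulator gene, had 43.9% in OX40L-JAG1 Treg, 13.7% in OX40L-JAG1 Teff, 16.5% in PBS Treg and 3.08% in PBS Teff. Smyd3, a lysine methyltransferase gene, had 35.6% in OX40L-JAG1 Treg, 12.6% in OX40L-JAG1 Teff, 16.3% in PBS Treg and 7.51% in PBS Teff. The windows called lower were that of Uri1, given above, and one inside Fas, the death receptor gene. The Fas window was lower in both Treg libraries: 2.33% in OX40L-JAG1 Treg, 26.1% in OX40L-JAG1 Teff, 5.56% in PBS Treg and 21.4% in PBS Teff. No window was called in both cell type pairs in the same direction, while 41 were at least 10 points higher and 19 at least 10 points lower in Treg in both. The rule limits losses more than gains here as well, so nothing is read from these counts. With reads divided by 3, 0 windows were higher and 2 lower in the PBS pair, and none was called in the OX40L-JAG1 pair.

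**Figure D5:**
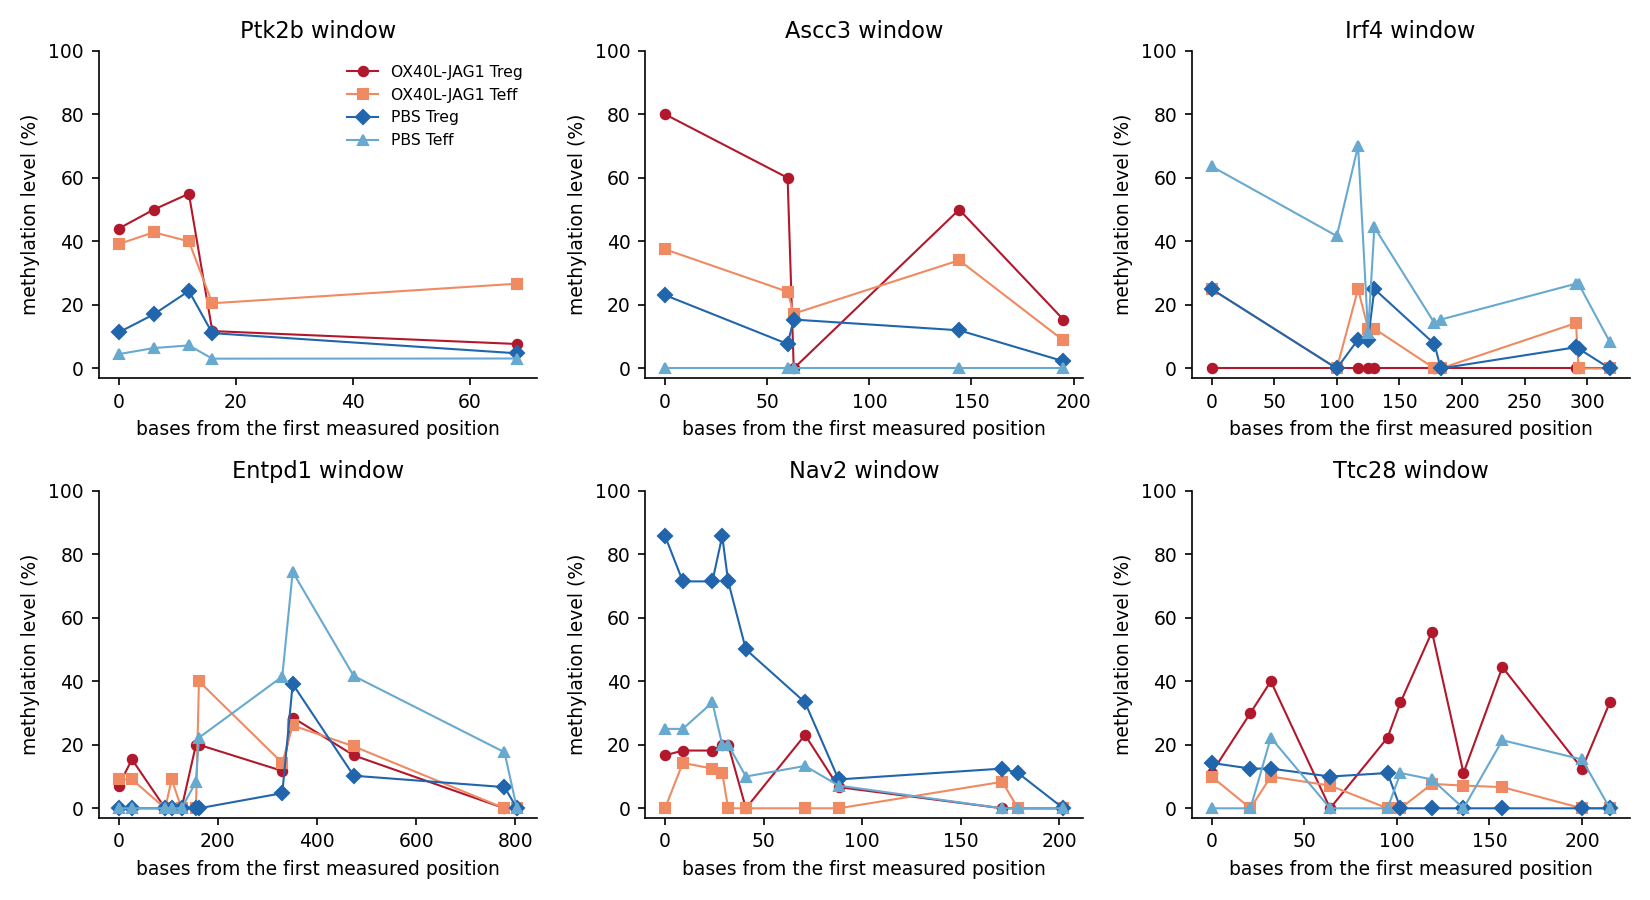
Methylation level (%) at each measured position of 6 unmethylated windows that were called in a pair of libraries, by distance in bases from the first measured position of the window. Ptk2b and Ascc3 are higher in both OX40L-JAG1 libraries over most positions, Irf4 and Entpd1 are highest in PBS Teff, Nav2 in PBS Treg and Ttc28 in OX40L-JAG1 Treg.

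Each library was also set against the other 3. Against the other 3 libraries pooled, 14 unmethylated windows were called higher in OX40L-JAG1 Treg, 10 in OX40L-JAG1 Teff, 2 in PBS Treg and 11 in PBS Teff. The share of all measured windows called higher was 0.103% for OX40L-JAG1 Treg, 0.0293% for OX40L-JAG1 Teff, 0.0283% for PBS Treg and 0.263% for PBS Teff. Called lower were 1 window in OX40L-JAG1 Treg, 0 in OX40L-JAG1 Teff, 0 in PBS Treg and 9 in PBS Teff. All measured windows had 0.205% lower in OX40L-JAG1 Treg, 0.175% in OX40L-JAG1 Teff, 0.0496% in PBS Treg and 0.16% in PBS Teff. Such a call does not mean that the library alone was high, since Ptk2b was called in both OX40L-JAG1 libraries. At least 20 points above every other library were 9 windows in OX40L-JAG1 Treg, 3 in OX40L-JAG1 Teff, 3 in PBS Treg and 4 in PBS Teff. These tests and counts reuse the pooled reads of the rule and describe the members only. The windows above every other library were not counted over all measured windows, so nothing is read from their order across libraries. OX40L-JAG1 Treg was highest in 28.2% of the 4420 windows, OX40L-JAG1 Teff in 24.1%, PBS Treg in 23.3% and PBS Teff in 21.7%. The library with the fewest reads was thus most often highest and the one with the most reads least often, and the part of read number in this order was not tested. After thinning every window to equal reads, 9 windows were called higher in OX40L-JAG1 Treg, 5 in OX40L-JAG1 Teff, 1 in PBS Treg and 12 in PBS Teff. With reads divided by 3 these counts were 0 in OX40L-JAG1 Treg, 0 in OX40L-JAG1 Teff, 0 in PBS Treg and 1 in PBS Teff. At a minimum of 10 reads per position they were 4 in OX40L-JAG1 Treg and 1 in each of the other libraries.

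Of the 14 windows called higher in OX40L-JAG1 Treg, 11 lay in gene bodies. Outside chromosome 18, gene bodies held 54.1% of all unmethylated windows and 42 of the 60 called in any comparison. The place of these 14 is therefore not read as a trait of OX40L-JAG1 Treg. Gtf2f2, a subunit gene of general factor TFIIF, had 44.2% in OX40L-JAG1 Treg, 13.7% in OX40L-JAG1 Teff, 15% in PBS Treg and 1.56% in PBS Teff. Frmd4b had 41.7% in OX40L-JAG1 Treg, 5.13% in OX40L-JAG1 Teff, 13.6% in PBS Treg and 4.0% in PBS Teff. Rora encodes a nuclear receptor of Th17 and tissue Treg cells, and chr9:69110001-69111000 in its body had 39.7% in OX40L-JAG1 Treg, 17.9% in OX40L-JAG1 Teff, 15.6% in PBS Treg and 4.22% in PBS Teff. All 5 positions of the Rora window were higher in OX40L-JAG1 Treg than in OX40L-JAG1 Teff and in PBS Treg. A window called higher in OX40L-JAG1 Teff at Fas, within 5 kb of the gene, had 0% in OX40L-JAG1 Treg, 27.9% in OX40L-JAG1 Teff, 0% in PBS Treg and 5.88% in PBS Teff. Among windows called higher in PBS Teff, the start of Pole4, which encodes a DNA polymerase epsilon subunit, had 5.88% in OX40L-JAG1 Treg, 23.1% in OX40L-JAG1 Teff, 9.30% in PBS Treg and 41.0% in PBS Teff, from 34 to 43 reads a library.

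The rule itself limits which changes can be seen, so each pair was also examined in windows chosen from the other 2 libraries alone. For OX40L-JAG1 Teff against PBS Teff, 4462 windows were at 20% or less in the 2 Treg libraries. Of these, 16 were called higher and 39 lower in OX40L-JAG1 Teff, or 0.359% and 0.874%, beside 0.0881% and 0.469% of all measured windows. More windows were thus lower than higher, unlike among the windows chosen on all 4 libraries. One of those lower that the pooled rule leaves out lay at Tnfaip3, the gene of the ubiquitin-editing enzyme A20, with 0% in OX40L-JAG1 Treg, 20% in OX40L-JAG1 Teff, 12.2% in PBS Treg and 84.4% in PBS Teff at chr10:19010001-19011000. This example was chosen after its values were seen. It rested on 26 reads in OX40L-JAG1 Treg, 30 in OX40L-JAG1 Teff, 41 in PBS Treg and 32 in PBS Teff. For PBS Treg against PBS Teff, 5 of 4460 windows chosen in the OX40L-JAG1 libraries were called higher and 29 lower. These were 0.112% and 0.65%, beside 0.115% and 0.165% of all measured windows. The share called higher was thus near that of all measured windows. These 2 comparisons share the PBS Teff library.

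In the Treg pair the split kept its direction. Of 4540 windows chosen in the Teff libraries, 11 were called higher and 1 lower in OX40L-JAG1 Treg against PBS Treg. These were 0.242% and 0.022%, beside 0.0194% and 0.0811% of all measured windows. Of 4530 windows chosen in the PBS libraries, 10 were higher and 5 lower in OX40L-JAG1 Treg against OX40L-JAG1 Teff. These were 0.221% and 0.11%, beside 0.0547% and 0.0588% of all measured windows. Median differences in such windows were 0 points in all 4 pairs. Among windows at 5% or less in the 2 choosing libraries, 3 of 1818 were called lower in OX40L-JAG1 Teff against PBS Teff, or 0.165%. In PBS Treg against PBS Teff 1 of 1795 was called lower, or 0.0557%. None was called in the other 2 pairs or in the higher direction. All measured windows had 0.469% and 0.165% lower in the first 2 of these pairs, and nothing is read from so few calls.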

How the data were processed

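Whole-genome bisulfite libraries of 4 sorted T cell populations were analysed from the table that the authors deposited. Per the submitters' processing notes, reads were handled with Trimmomatic and Bismark on mm10. Versions, settings and duplicate removal are not given in the sources used here. Per the file headers, the deposited table holds for each library and cytosine position the reads, as a count, the methylated ones, as a count, and their quotient. That deposited quotient is a fraction from 0 to 1 and was recomputed from the counts. The table lists 25374149 positions with the strands apart. No nonzero count is below 5, so listed reads (103584075 in OX40L-JAG1 Treg, 159291553 in OX40L-JAG1 Teff, 131555634 in PBS Treg and 208402911 in PBS Teff) are not sequencing depth.

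Positions that had 5 or more reads in every library (4795507, or 18.9%) were summed in windows of 1000 bases with at least 5 positions, without the mitochondrial genome. Windows were compared with the two-sided Fisher's exact test, levels carry 95% Wilson and differences 95% Newcombe intervals, and the interaction used a Wald test with 0.5 added to each cell. The code was checked on simulated reads. Genes and promoters came from RefSeq GRCm38.p6, the assembly that mm10 names. In promoters, 99.98% of 224993 listed positions fell on a CpG.

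The members, the gene lists and the tests were chosen with earlier results of these data known. Named genes are, per pair, the 5 windows higher and 3 lower with the interval bound farthest from 0, outside predicted genes, per library the 3 windows highest against the other 3, genes at the longest runs, list genes with a called window and up to 4 genes per list with the most unmethylated windows. Not all of them are described, and some results are not reported here. Alternatives were a minimum of 10 reads, reads divided by 3, members at 10% or less, members chosen outside the pair or by the mean of the libraries, windows shifted by 500 bases, a difference of 10 points, and thinning to equal reads (seed 1). Python 3.11.15, numpy 2.4.6, pandas 2.3.3, scipy 1.17.1, numba 0.67.0 and matplotlib 3.10.9 were used.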

Additional observations from a re-analysis of the deposited data

How the results depend on the processing

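With 1 library per group, no spread between samples could be measured, so every count of called windows describes these libraries. Counts in each sentence below follow the order Teff treatment pair higher and lower, Treg treatment pair higher and lower, PBS cell type pair higher and lower, OX40L-JAG1 cell type pair higher and lower, then higher in OX40L-JAG1 Treg, OX40L-JAG1 Teff, PBS Treg and PBS Teff against the other 3. As reported they were 14, 8, 6, 1, 6, 8, 4, 2, 14, 10, 2 and 11. At a minimum of 10 reads per position, 1357 windows were left and the counts were 1, 1, 4, 0, 1, 4, 1, 1, 4, 1, 1 and 1. With reads divided by 3 they were 1, 0, 0, 0, 0, 2, 0, 0, 0, 0, 0 and 1. Of 45 named calls, 2 kept their call there, Ptk2b in the Teff treatment pair and Mia2 in the PBS pair. In windows at 10% or less, of which there were 2763, they were 1, 0, 0, 0, 1, 0, 0, 0, 3, 1, 1 and 0. At a difference of 10 points they were 45, 27, 12, 2, 26, 15, 12, 6, 35, 22, 5 and 29. After thinning to equal reads they were 5, 4, 1, 1, 3, 6, 1, 1, 9, 5, 1 and 12, and 26 of 45 named calls kept theirs. In windows chosen outside the pair, the 8 pair counts were 16, 39, 11, 1, 5, 29, 10 and 5, so that the Teff treatment split turned. Windows shifted by 500 bases numbered 4369 and moved 3 counts by more than 1.5 times, to 0 lower in the Treg treatment pair, 1 lower in the OX40L-JAG1 cell type pair and 1 higher in PBS Treg. Membership by the mean of the 4 libraries gave 4395 windows and moved no count that far. The interaction gave 0 called windows in each of these settings that applies to it. The cause of these changes was not tested, beyond that fewer reads or windows enter with a minimum of 10 reads, division by 3, thinning and members at 10% or less. No named call changed sign in the settings run on single windows. The share of unmethylated gene starts was 29.8% at 10 reads, 20.7% for windows at 10% or less, 26.7% by the mean and 26.7% in shifted windows, against 26.8% as reported. No paired analysis was possible because each group has a single library and the labels carry no replicate numbers.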

Other observations

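The X chromosome lies outside the rule and was read the same way. Of its 20356 measured windows, 10 were at 20% or less, or 0.0491%, against 1.505% of the autosomal ones. Pooled over these 10, the level was 10.7% in OX40L-JAG1 Treg, 10.8% in OX40L-JAG1 Teff, 12.1% in PBS Treg and 9.98% in PBS Teff. None was called in a pair of libraries, where 42 of the 4420 autosomal ones were, so 0 of 10 says little about the X chromosome.

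Read depth per position set apart 90 unmethylated windows, with over 5 times the median of 45.7 reads per position over the 4 libraries together. None of the 90 was called in any comparison, against 60 of 4420 in all, and at that rate 0 of 90 is no result about them.

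At Actb, the cytoplasmic actin gene, the single measured window had 5.51% in OX40L-JAG1 Treg, 7.14% in OX40L-JAG1 Teff, 25.4% in PBS Treg and 25.7% in PBS Teff. Both PBS libraries were above both OX40L-JAG1 libraries, and neither treatment pair was called. This window was picked out after its values were seen.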
